A study of Mus musculus with 12 samples.

Results

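The 10 genes described here, Cdkn1a, Eda2r, Phlda3, Ccng1, Mdm2, Plk2, Aen, Zmat3, Bbc3 and Pmaip1, are known targets of the transcription factor p53, out of 19505 genes measured. They were picked for being higher after 3 weeks of cuprizone than at 0 weeks, so their 3-week difference is given as a description with no test. All 10 were measured, each by 1 transcript cluster of the array. GnT-IX-deficient C57BL/6 mice had been fed 0.2% (w/w) cuprizone for 12 weeks, and wild-type C57BL/6 mice had been fed it for 0, 3 or 12 weeks. Feeding began at 8 to 12 weeks of age in every group, so the weeks of diet cannot be told apart from age at sampling. Cuprizone is a copper chelator that kills oligodendrocytes, and GnT-IX, the product of Mgat5b, is a glycosyltransferase of brain O-mannosyl glycans. How the deficient allele was made and how many animals went into an array are not given in the sources used here. White matter was dissociated with papain and astrocytes were then pulled out on magnetic beads by GLAST, a glutamate transporter whose gene is Slc1a3. Each of the 4 groups had 3 biological replicates with 1 array each.

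p53 is held at a low level by Mdm2, a ubiquitin ligase that it induces itself, and is stabilised by DNA damage and other stress. It then binds paired elements in DNA and raises genes that stop the cell cycle, repair DNA or start apoptosis. In the brain it is known above all for its part in the death of injured neurons. Several of its targets, among them Cdkn1a, are also induced by other pathways, so a target's transcript level is not a measure of p53 itself.

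Signals are on the log2 scale, on which a difference of 1 is a doubling. Array medians lay between 5.38 and 5.45, and arrays of a group correlated with r of 0.975 to 0.985 across clusters. Mgat5b was at 3.70, 4.19 and 4.06 in the GnT-IX-deficient arrays, against 5.96, 5.88 and 5.57 in wild-type arrays at 12 weeks, a difference of -1.82 (SE 0.21, limma adjusted p = 0.00159). The mean of 14 homeostatic astrocyte markers was 9.43 to 9.75 at 0 weeks, 8.66 to 9.06 at 3 weeks and 8.93 to 9.42 at 12 weeks in wild-type arrays, and 8.65 to 9.27 in GnT-IX-deficient arrays. The mean of 10 mature oligodendrocyte markers was 9.26 to 9.65 at 0 weeks and 9.15 to 9.79 at 3 weeks in wild-type arrays. At 12 weeks it was 8.40 to 9.16 in wild-type arrays and 8.42 to 9.18 in GnT-IX-deficient arrays. The preparations held transcripts of other cells as well. With these bulk arrays, fewer cells of a type and less RNA per cell cannot be told apart.

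The promoters are shown because the genes were picked for moving the same way and p53 is known to act through DNA sites near many of them. RefSeq windows (GRCm38.p6, 250 bases before to 50 after an annotated start) were found for 8 of the 10 genes. They were searched on both strands for a p53 response element, taken as a pair of adjoining elements of 10 letters each with at most 1 base between them. The C at position 4 and the G at position 7 of each element had to match, and up to 3 of the 20 letters could differ. Cdkn1a, Ccng1, Aen and Bbc3 held one, 4 of 8 (50%), against 3.31% of 15691 genes with a window. At most 1 differing letter was found in Cdkn1a and Ccng1, 2 of 8 (25%), against 0.115% of all genes with a window. The search settings were chosen after seeing its matches and the genes are known p53 targets, so nothing is read from these shares. The stretches below are the 250 bases before a start, 5′ to 3′ on the gene's strand, with the matched pair in capitals. Cdkn1a lies on the plus strand and its upstream start was used (chr17:29090729-29090978). Ccng1 (chr11:40755287-40755536) and Eda2r (chrX:97377210-97377459) lie on the minus strand, and Eda2r is shown as a gene with a large 3-week difference and no match.
Cdkn1a: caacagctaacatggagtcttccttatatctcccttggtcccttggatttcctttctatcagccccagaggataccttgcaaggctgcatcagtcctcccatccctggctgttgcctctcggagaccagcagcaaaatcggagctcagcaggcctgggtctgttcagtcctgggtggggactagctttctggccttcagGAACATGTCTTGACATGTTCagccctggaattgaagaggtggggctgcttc
Ccng1: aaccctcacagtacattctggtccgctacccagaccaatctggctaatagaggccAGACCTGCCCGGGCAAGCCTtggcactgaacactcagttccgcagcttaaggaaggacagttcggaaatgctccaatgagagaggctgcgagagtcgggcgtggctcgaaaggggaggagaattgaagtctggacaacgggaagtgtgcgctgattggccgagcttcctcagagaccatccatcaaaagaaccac
Eda2r: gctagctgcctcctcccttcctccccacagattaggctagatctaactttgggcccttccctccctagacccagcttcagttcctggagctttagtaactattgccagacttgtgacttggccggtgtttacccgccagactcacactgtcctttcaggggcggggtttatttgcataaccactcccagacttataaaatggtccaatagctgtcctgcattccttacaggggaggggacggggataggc

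The pair of Cdkn1a began at base -51 relative to that start, and no match lay in the window of its second start (chr17:29093519-29093818). The pair of Ccng1 began at base -195 relative to its start. Aen held a match with 3 differing letters, which is the same DNA in the windows of both its starts, and Bbc3 held one in the first of its 3 windows.
Aen (chr7:78895937-78895956): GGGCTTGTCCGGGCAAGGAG
Bbc3 (chr7:16309486-16309505): CTGCAAGCCCCGACTTGTCC
No match was found in the windows of Eda2r, Phlda3, Mdm2 and Plk2, which says only that these letters are not in those windows. A match is a description of letters and no measurement of binding.

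The first question was how these genes differed between wild-type cells after 3 weeks and 0 weeks of cuprizone. The cell cycle inhibitor gene Cdkn1a, the receptor gene Eda2r, the Akt inhibitor gene Phlda3 and the cyclin gene Ccng1 were higher at 3 weeks by 1.46 to 3.28, and each of their 3-week arrays lay above all 0-week arrays. The other 6 genes differed by 0.13 to 0.79. The 10 genes had a median difference of 0.77, against -0.02 over all genes. In the same contrast 6 of the 10 had an adjusted p under 0.05 in the fit, where 1.61% of all genes did so with a higher value, and 8 of 10 had groups that did not overlap, where 10.8% of all genes did so upward. As the genes were picked on this contrast, nothing is read from either count.

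**Figure D1:**
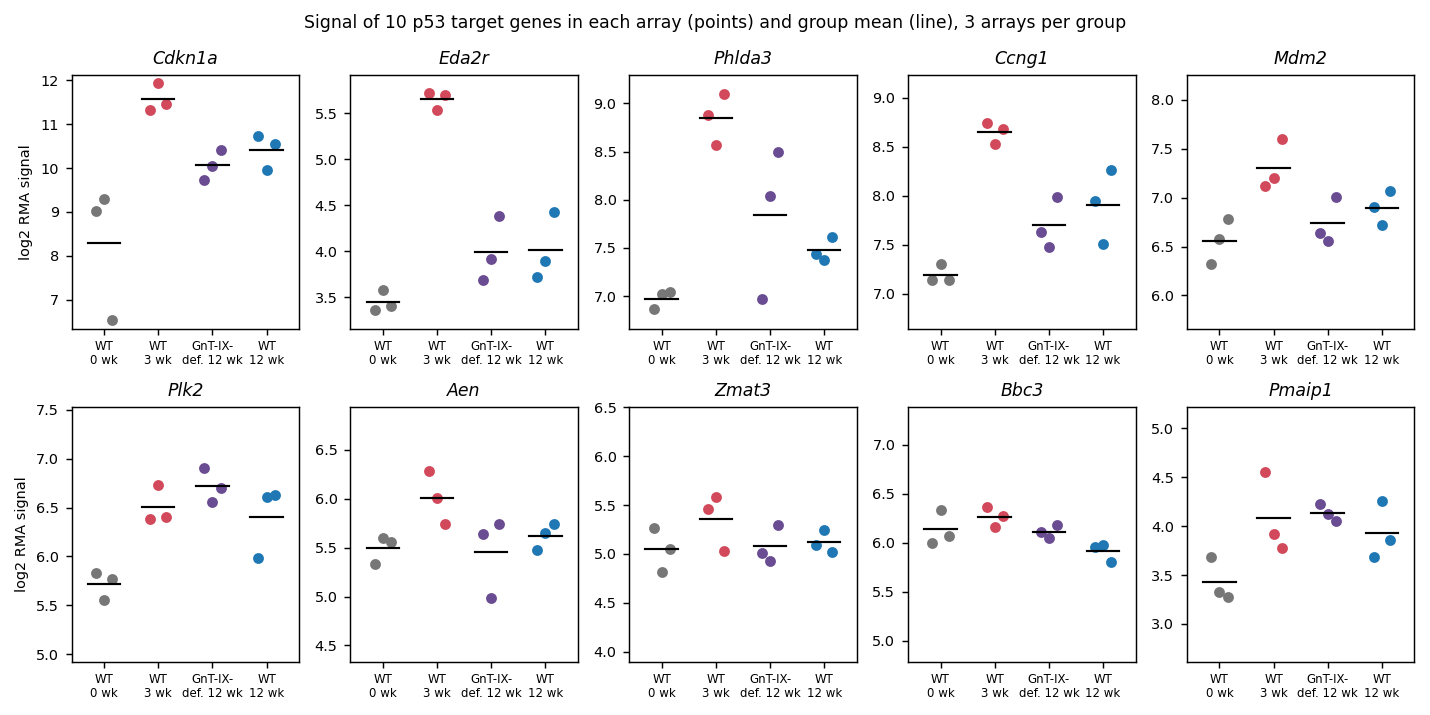
Log2 signal (vertical axis) of each of the 10 p53 target genes in the 12 arrays, with a point per array and a line at the group mean, for wild type at 0 and 3 weeks, GnT-IX-deficient at 12 weeks and wild type at 12 weeks. Each panel has its own range of values. Cdkn1a, Eda2r, Phlda3 and Ccng1 stand highest at 3 weeks, and 1 of the 0-week arrays of Cdkn1a is at 6.54, apart from 9.02 and 9.29.

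Among the genes that act on the cell cycle, Cdkn1a encodes p21, which binds and blocks cyclin-dependent kinases. It was at 9.02, 9.29 and 6.54 at 0 weeks, 11.32, 11.93 and 11.45 at 3 weeks, and 10.74, 9.95 and 10.54 at 12 weeks. Replicate 3 of the 0-week group was lower than the other two, and its group SD of 1.52 was the widest of any of these genes in any group. The 3-week mean was 3.28 higher than the 0-week mean (SE 0.51), rank 7 of the 19505 genes, and 2.41 higher without replicate 3 of the 0-week group.

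Ccng1 encodes cyclin G1, which brings the phosphatase PP2A to Mdm2. Its values were 7.14, 7.30 and 7.14 at 0 weeks, 8.74, 8.53 and 8.68 at 3 weeks, and 7.95, 7.51 and 8.26 at 12 weeks. The 3 times did not overlap, with 3 weeks highest and 12 weeks between. The 3-week mean was 1.46 higher than the 0-week mean (SE 0.20). Plk2, a Polo-like kinase gene of centriole duplication and of synapses, was at 5.83, 5.55 and 5.77 at 0 weeks, 6.38, 6.73 and 6.40 at 3 weeks, and 5.98, 6.61 and 6.63 at 12 weeks. Its 3-week and 12-week arrays overlapped, and both groups lay above the 0-week arrays. The 3-week mean was 0.79 higher than at 0 weeks (SE 0.20).

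Among the regulators and receptors, Mdm2 closes the feedback loop on p53. It was at 6.32, 6.58 and 6.78 at 0 weeks, 7.12, 7.20 and 7.60 at 3 weeks, and 6.91, 6.72 and 7.07 at 12 weeks. The 3-week arrays lay above all the others, by a narrow margin over the highest 12-week array. Phlda3 encodes a pleckstrin homology protein that competes with Akt for membrane lipids. It was at 6.86, 7.02 and 7.04 at 0 weeks, 8.88, 8.57 and 9.10 at 3 weeks, and 7.44, 7.37 and 7.61 at 12 weeks. The 3 times did not overlap, and the 3-week mean was 1.88 higher than the 0-week mean (SE 0.29).

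Eda2r encodes a receptor of the tumour necrosis factor family that binds the A2 form of ectodysplasin. It was at 3.36, 3.58 and 3.41 at 0 weeks, 5.72, 5.53 and 5.70 at 3 weeks, and 3.72, 3.90 and 4.43 at 12 weeks. All 3 of its 0-week arrays lay below the lower quartile of any array (3.73 to 3.85), so the size of its 3-week difference of 2.20 (SE 0.21) is uncertain. Its 3-week arrays lay above all 0-week and 12-week arrays, which also did not overlap each other. Its ligand gene Eda averaged 4.21, 4.07 and 4.18 at 0, 3 and 12 weeks, and no difference of Eda passed the test. The related receptor gene Tnfrsf19 fell by 0.89 at 3 weeks (SE 0.17, limma adjusted p = 0.0102), and Edar, the receptor of the A1 form, was at 5.91 at 3 weeks and 6.47 at 0 weeks (adjusted p = 0.0871). Of 6 measured genes of the ectodysplasin list, 1 fell and none rose at 3 weeks, where 1.63% of all genes fell.

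The genes of cell death, with Zmat3, had the smallest differences. Bbc3, which encodes the BH3-only protein PUMA, was at 6.00, 6.34 and 6.07 at 0 weeks, 6.37, 6.16 and 6.27 at 3 weeks, and 5.96, 5.98 and 5.80 at 12 weeks. The 3-week and 0-week arrays overlapped, and the 12-week arrays were lowest. Pmaip1, which encodes the BH3-only protein NOXA, was at 3.68, 3.33 and 3.28 at 0 weeks, 4.55, 3.92 and 3.78 at 3 weeks, and 3.68, 4.26 and 3.86 at 12 weeks. All its 0-week arrays were below the lower quartile of any array, and the 3-week and 12-week arrays overlapped. Aen, a nuclease gene of apoptosis, was at 5.33, 5.60 and 5.56 at 0 weeks, 6.28, 6.01 and 5.74 at 3 weeks, and 5.48, 5.65 and 5.74 at 12 weeks. Zmat3, a zinc finger gene whose protein binds RNA, ranged from 4.82 to 5.58 over the 9 wild-type arrays, and its groups overlapped at all times. The differences at 3 weeks were 0.65 for Pmaip1, 0.51 for Aen, 0.31 for Zmat3 and 0.13 for Bbc3.

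The second question was what the genes looked like after 12 weeks in wild-type cells. This comparison shares the 0-week arrays, and that of 12 against 3 weeks the 3-week arrays, with the contrast on which the genes were picked, so both are descriptions. At 12 weeks Cdkn1a was 2.13 higher than at 0 weeks (SE 0.51), and 1.26 higher without replicate 3 of the 0-week group. Ccng1 was higher by 0.71 (SE 0.20), Plk2 by 0.69 (SE 0.20), Eda2r by 0.57 (SE 0.21), Pmaip1 by 0.50 (SE 0.22) and Phlda3 by 0.50 (SE 0.29), while Bbc3 was lower by 0.22 on average (-0.22, SE 0.16). Of the 10, Cdkn1a alone had an adjusted p under 0.05, where 2.11% of all genes did so with a higher value. It had none without replicate 1 of the 0-week group, without any 1 of the 12-week arrays, with a robust variance with trend, with the 6 compared arrays alone, or with the microglial marker mean in the fit. Groups at 12 and 0 weeks did not overlap for 5 higher genes, where 10.8% of all genes did so upward. These were Cdkn1a, Eda2r, Phlda3, Ccng1 and Plk2. Bbc3 was the 1 lower gene without overlap, where 9.95% of all genes did so downward.

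From 3 to 12 weeks all 10 differences were negative, with a median of -0.40 against 0.01 over all genes. Eda2r was at -1.63 (SE 0.21), Phlda3 at -1.38 (SE 0.29), Cdkn1a at -1.16 (SE 0.51) and Ccng1 at -0.74 (SE 0.20), whereas Plk2 was at -0.10 (SE 0.20) and Pmaip1 at -0.15 (SE 0.22). Eda2r was 1 of the 11 genes with an adjusted p under 0.05 and a lower value, 0.0564% of all genes, and was not among them without replicate 3 of the 3-week group or replicate 2 of the 12-week group, or with the microglial marker mean in the fit. Groups did not overlap for 6 of the 10, all lower at 12 weeks, where 8.1% of all genes did so downward. At 12 weeks the means of Eda2r and Phlda3 lay nearer to 0 weeks, those of Cdkn1a, Plk2 and Pmaip1 nearer to 3 weeks, and that of Ccng1 about midway. Without replicate 3 of the 0-week group Cdkn1a was also about midway, at 1.26 above 0 weeks. No test of one gene's course against another's was run.

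The third question was whether loss of GnT-IX changed these genes after 12 weeks. The means compared share no array with the contrast on which the genes were picked. None of the 10 genes passed the test, where 0.0256% of all genes did (limma over all 12 arrays, Benjamini-Hochberg over 19505 genes). At an unadjusted p under 0.05 the count was also 0, where 6.99% of all genes passed. The median difference of the 10 was -0.03, against -0.01 over all genes. Adjusted p-values ran from 0.779 to 0.990. These p-values rest on a spread pooled over the 3 arrays of each of the 4 groups, so the 0- and 3-week arrays enter it. A miss does not show that the genotypes had equal levels.

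**Figure D2:**
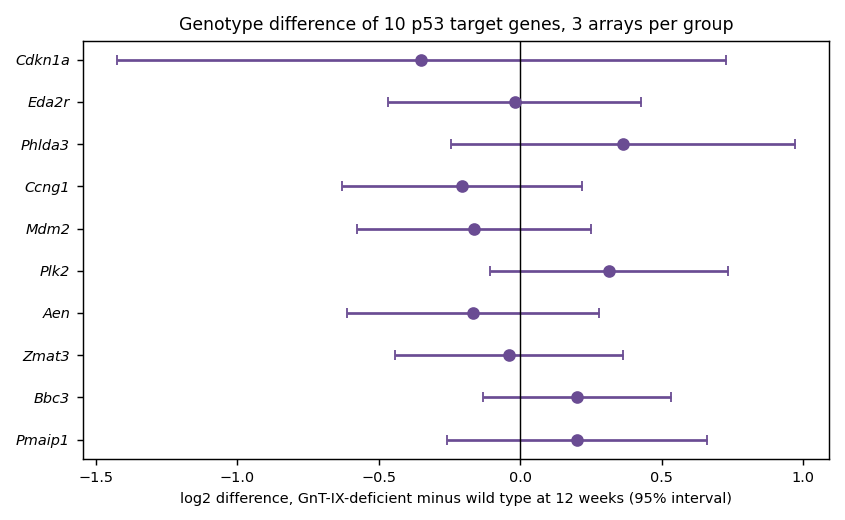
Log2 difference of each gene between GnT-IX-deficient and wild-type cells after 12 weeks of cuprizone (horizontal axis), with a point for the difference and a bar for its 95% interval from the limma fit, 3 arrays per group. All 10 intervals include 0, and that of Cdkn1a is the widest, from -1.43 to 0.73. The spread behind each interval is pooled over all 4 groups.

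Cdkn1a was at 9.72, 10.05 and 10.41 in GnT-IX-deficient arrays and at 10.74, 9.95 and 10.54 in wild-type arrays. The groups overlapped, and the difference of -0.35 had a 95% interval of -1.43 to 0.73. The SD of Cdkn1a was 0.35 and 0.41 in these groups but 1.52 at 0 weeks, which also enters the width of that interval. Eda2r was at 3.69, 3.92 and 4.38 in GnT-IX-deficient arrays and at 3.72, 3.90 and 4.43 in wild-type arrays, nearly the same 3 values, with a difference of -0.02 (95% interval -0.47 to 0.43). Ccng1 was at 7.63, 7.48 and 7.99 in GnT-IX-deficient arrays and at 7.95, 7.51 and 8.26 in wild-type arrays, a difference of -0.21 (95% interval -0.63 to 0.22). All 3 intervals include 0.

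Phlda3 was uneven in the GnT-IX-deficient group, at 6.97, 8.04 and 8.50, against 7.44, 7.37 and 7.61 in wild-type arrays. Of the deficient arrays 2 lay above and 1 below the wild-type range, and the difference of 0.36 had a 95% interval of -0.25 to 0.97. Plk2 was at 6.90, 6.56 and 6.70 in GnT-IX-deficient arrays and at 5.98, 6.61 and 6.63 in wild-type arrays, a difference of 0.31 (95% interval -0.11 to 0.73). Bbc3 was at 6.11, 6.05 and 6.18 in GnT-IX-deficient arrays and at 5.96, 5.98 and 5.80 in wild-type arrays. It was the 1 of 10 whose groups did not overlap upward, where 5.27% of all genes did so, and its difference was 0.20 (95% interval -0.13 to 0.53). The differences of Mdm2, Aen, Zmat3 and Pmaip1 lay between -0.17 and 0.20. Choroid plexus markers moved with this comparison: all 8 had higher means in GnT-IX-deficient arrays, none passed the test (6 at an unadjusted p under 0.05), and their mean was 8.10, 7.08 and 5.43 in GnT-IX-deficient arrays and 4.94, 5.31 and 4.30 in wild-type arrays at 12 weeks. Phlda3, Cdkn1a and Eda2r were each lowest in the deficient array with the most choroid plexus signal and highest in that with the least. Ccng1, Mdm2, Aen, Zmat3 and Bbc3 were also highest in the array with the least, whereas Plk2 and Pmaip1 were highest in that with the most. With the choroid plexus mean as a covariate none of the 10 genes passed, and the difference of Phlda3 was 0.97 (limma adjusted p = 0.936). Of all genes 1 passed in that fit. The choroid plexus mean did not overlap between the genotypes, so the fit cannot tell its part from that of genotype. The 9 ependymal markers also all had higher means, with list means of 6.44 to 7.68 in GnT-IX-deficient arrays and 6.00 to 6.36 in wild-type arrays. None passed the test, but 8 had an unadjusted p under 0.05, where 6.99% of all genes did. Of the 9, 5 had groups that did not overlap, where 5.27% of all genes did so upward. The part of the ependymal markers in the result was not tested. All 13 microglia and macrophage markers had lower means in GnT-IX-deficient arrays (median difference -0.57), as did 13 of 14 homeostatic astrocyte markers (median -0.17), with none past the test. Of 18 proliferation genes none passed, 6 had an unadjusted p under 0.05 and 5 had groups that did not overlap, lower in GnT-IX-deficient arrays, where 5.57% of all genes did so (median -0.39). The part of the astrocyte and proliferation lists was not tested.

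A list of 34 further measured p53 targets was set beside the 10, and it lacks the 10 because they were taken out for their 3-week level. At 3 weeks 2 of the 34 rose (5.88%) and none fell, where 1.61% of all genes rose. They were Gadd45a, a growth arrest gene of the stress response, and Rps27l, a ribosomal protein gene that is a p53 target. Gadd45a was at 7.13, 7.49 and 7.57 at 3 weeks and at 6.12, 5.84 and 6.28 at 0 weeks, higher in all 3 arrays by a mean of 1.32 (SE 0.25, limma adjusted p = 0.00965). Rps27l was at 9.42, 8.57 and 9.31 at 3 weeks and at 7.79, 7.80 and 8.28 at 0 weeks, again without overlap, a rise of 1.14 (SE 0.23, limma adjusted p = 0.0163). The count was 0 without replicate 2 of the 0-week group or with the mean of the microglial markers added to the fit, and 1, Gadd45a, without replicate 1 of either group. Without replicate 3 of the 3-week group Rps27l no longer passed and Trp53i13, which was lower at 3 weeks, did.

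The median of the 34 was 0.18 at 3 weeks, against -0.02 over all genes, and 22 of 34 lay above 0. Groups did not overlap for 9 of the 34 upward, where 10.8% of all genes did so, and for 2 downward, where 10.5% did. The antiproliferative gene Btg2 was higher by 0.87 without passing (limma adjusted p = 0.0702), though it passed with array weights. Several well-known targets lay on the other side without passing the test, among them the sestrin gene Sesn1 at -0.79 (adjusted p = 0.0680), which did pass as lower with array weights and without replicate 2 of the 3-week group, and Trp53inp1, a p53 cofactor gene, at -0.68 (adjusted p = 0.221). Of 28 of these genes with a promoter window, 5 held a match by the same search (17.9%), a share given as a description only. Rps27l held one with 1 differing letter in the window of its second start (chr9:66946163-66946462) and none in that of its first. It is printed because the gene passed the test.
Rps27l (chr9:66946296-66946315): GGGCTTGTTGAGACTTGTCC
At 12 weeks 2 of the 34 rose (5.88%) and none fell, where 2.11% of all genes rose and 0.523% fell. Btg2, an antiproliferative gene that is also an immediate early gene, rose by 1.23 (SE 0.24, adjusted p = 0.0163), and Rps27l by 0.96 (SE 0.23, adjusted p = 0.0416). The count was 0 with the microglial marker mean in the fit, without replicate 1 or 2 of the 0-week group or without replicate 2 of the 12-week group, and 1 without replicate 3 of the 12-week group. No member of the list passed between 12 and 3 weeks (limma; 8 at an unadjusted p under 0.05, where 11.4% of all genes were) or between the genotypes (3 at an unadjusted p under 0.05).

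**Figure D3:**
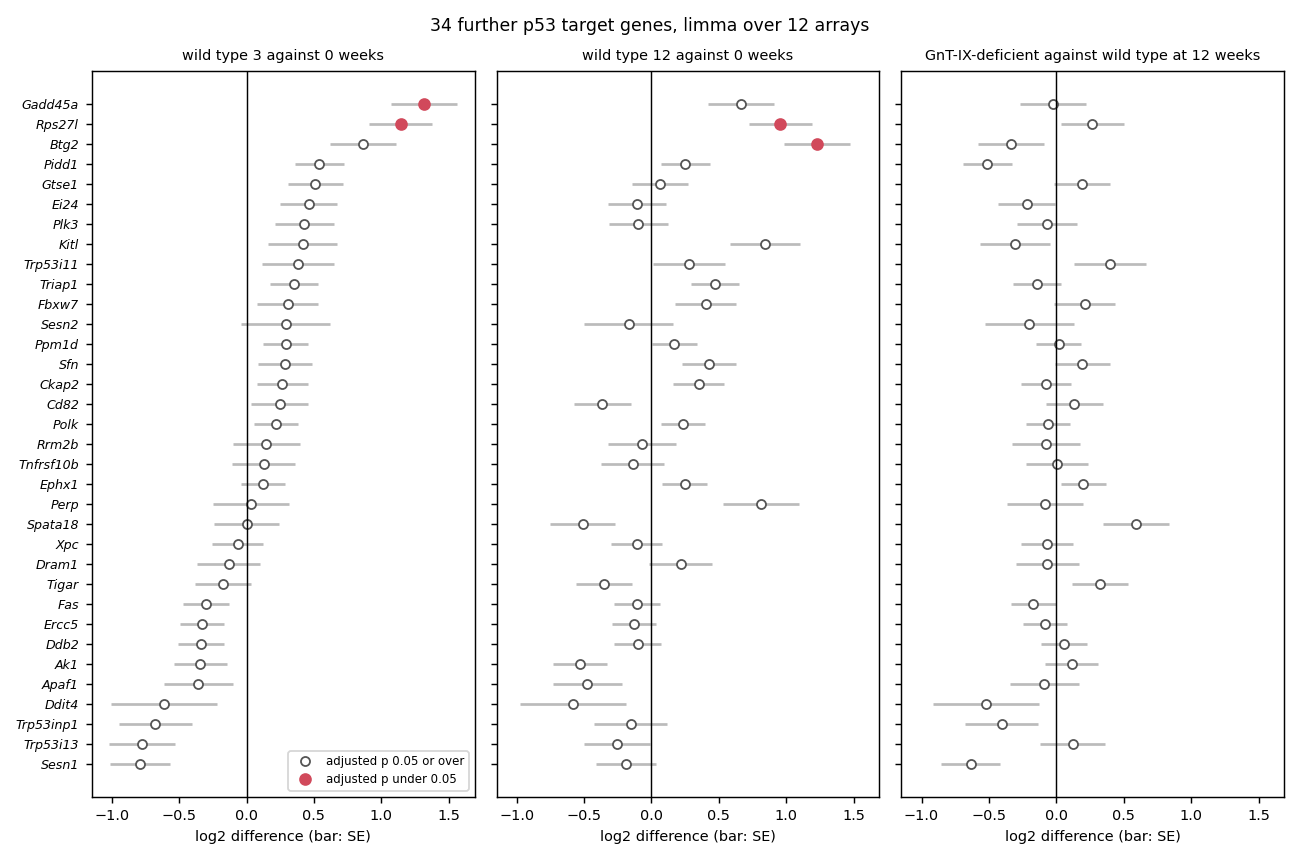
Log2 differences (horizontal axes) of 34 further p53 targets for 3 against 0 weeks and 12 against 0 weeks in wild type, and for GnT-IX-deficient against wild type at 12 weeks, ordered by the 3-week difference. Points are differences, bars are SEs, and filled points have an adjusted p under 0.05: Gadd45a and Rps27l at 3 weeks, Rps27l and Btg2 at 12 weeks, and none between genotypes.

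Of 20 genes of the p53 family and its regulators, none passed in any of the 4 comparisons (limma), with 4 at an unadjusted p under 0.05 at 3 weeks, 2 at 12 weeks against 0, 3 at 12 weeks against 3 and 2 between genotypes. The shares of all genes that passed in the first 3 of these were 3.24%, 2.64% and 0.082%, and 16.1%, 15.1% and 11.4% had an unadjusted p under 0.05. Mdm4, the partner of Mdm2 in holding p53 down, averaged 5.78 ± 0.36 at 3 weeks and 5.94 ± 0.22 at 0 weeks (SD, n = 3 each). In wild-type arrays at 12 weeks it averaged 5.62, below 0 weeks without overlap (limma adjusted p = 0.494), where 9.95% of all genes did so downward. In GnT-IX-deficient arrays it averaged 5.22, below wild type at 12 weeks without overlap (limma adjusted p = 0.720), where 5.57% of all genes did so downward. None of 7 other inhibitors of cyclin-dependent kinases passed either, and at 3 weeks none of the 7 had an unadjusted p under 0.05. Among 11 cyclins, kinases and Pcna, Pcna rose at 3 weeks by 1.02 (SE 0.23, adjusted p = 0.0270) and at 12 weeks by 0.99 (SE 0.23, adjusted p = 0.0353). Pcna encodes the DNA clamp to which p21 binds. Ccnd2, a D-type cyclin gene, rose at 12 weeks by 0.72 (SE 0.18, adjusted p = 0.0442), as did 2 of 18 proliferation genes, Bub1 by 0.84 and Aurkb by 0.93. At 3 weeks none of the 18 proliferation genes passed (6 at an unadjusted p under 0.05), and their median was 0.31. Of 15 partners of the BH3-only proteins and caspases, none passed at 3 weeks, and 1, the caspase gene Casp8, rose at 12 weeks by 1.72 (SE 0.39, adjusted p = 0.0275).

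Stress and cell composition lists moved in the same contrasts, in which 1.61% of all genes rose and 1.63% fell at 3 weeks, and 2.11% rose and 0.523% fell at 12 weeks. Of the 14 homeostatic astrocyte markers 7 fell and 1 rose at 3 weeks, with a median difference of -0.96, and 12 had 3-week arrays all below the 0-week arrays. Slc1a3, the antigen of the bead selection, was among those that fell, at 6.49 to 7.50 at 3 weeks and 8.01 to 8.84 at 0 weeks (-1.35, SE 0.27, limma adjusted p = 0.0150). At 12 weeks it was 1.05 lower on average than at 0 weeks (-1.05, adjusted p = 0.0546). The marker that rose at 3 weeks was Gfap, the intermediate filament gene of reactive astrocytes, at 1.97 (SE 0.46, adjusted p = 0.0305). At 12 weeks against 0, 1 of the 14 rose and 1 fell. At 3 weeks 10 of 18 genes of the integrated stress response rose, and 5 of 19 genes in the immediate early list did, with none falling in either. The mean of the stress list was 7.70 to 7.88 at 3 weeks and 6.98 to 7.05 at 0 weeks, and that of the immediate early list 6.47 to 6.87 at 3 weeks and 5.85 to 5.99 at 0 weeks. Of 13 microglia and macrophage markers 9 rose at 3 weeks and 11 at 12 weeks. Their mean was 5.61, 5.05 and 5.23 at 0 weeks, 8.83, 6.91 and 6.49 at 3 weeks, and 7.84, 8.96 and 8.05 at 12 weeks, and at 0 weeks 1 of the 13 lay below the lower quartile. Of 10 neuron markers 4 rose at 3 weeks, with list means of 6.70 to 7.32 at 3 weeks and 6.05 to 6.51 at 0 weeks. Of 10 endothelial markers none passed at 3 weeks and 4 rose at 12 weeks, with list means of 6.73 to 7.03 at 12 weeks and 5.82 to 6.03 at 0 weeks. Of 8 oligodendrocyte precursor markers none passed at 3 weeks (4 at an unadjusted p under 0.05, where 16.1% of all genes were). All 8 had higher means than at 0 weeks. Their list means were 9.15 to 9.35 at 0 weeks, 9.66 to 9.85 at 3 weeks and 9.02 to 9.68 at 12 weeks. Of 10 mature oligodendrocyte markers none passed at 3 weeks and 1 fell at 12 weeks. The part of the stress, immediate early, astrocyte, endothelial, neuron and both oligodendrocyte lists in the differences of the p53 targets was not tested.

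**Figure D4:**
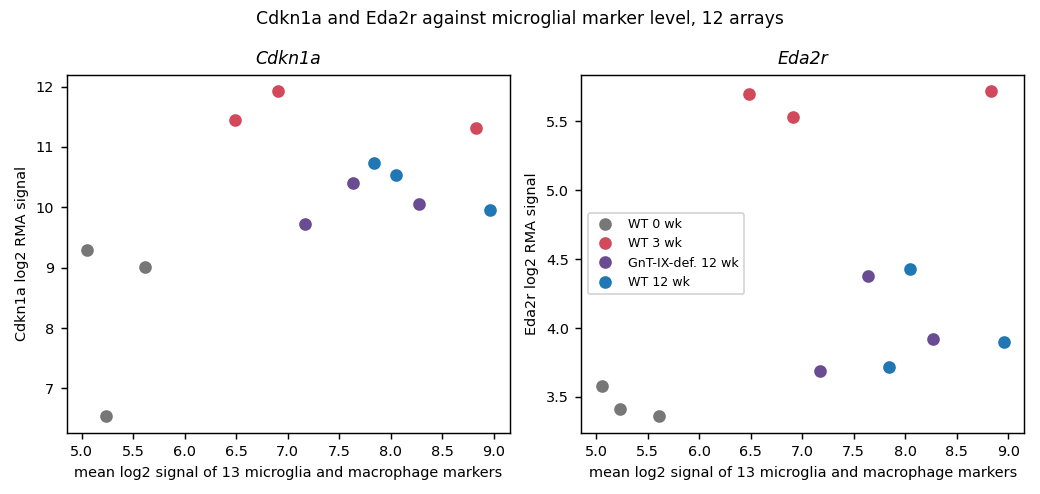
Signal of Cdkn1a (left) and Eda2r (right) against the mean log2 signal of 13 microglia and macrophage markers in each of the 12 arrays, coloured by group. The 3-week arrays span 6.49 to 8.83 on the marker axis and 5.53 to 5.72 for Eda2r. The wild-type 12-week arrays span 7.84 to 8.96 on the marker axis and 3.72 to 4.43 for Eda2r.

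Among the 3-week arrays the marker mean spanned 6.49 to 8.83, Eda2r 5.53 to 5.72, Ccng1 8.53 to 8.74 and Cdkn1a 11.32 to 11.93. In wild-type arrays at 12 weeks the markers were at 7.84 to 8.96. All 10 genes had lower means there than at 3 weeks, with differences from -0.10 for Plk2 and -0.15 for Pmaip1 to -1.63 for Eda2r. With the marker mean as a covariate the 3-week difference was 3.59 for Cdkn1a, 2.15 for Eda2r, 1.72 for Phlda3, 1.62 for Ccng1, 1.12 for Mdm2 and 0.80 for Plk2. That of Pmaip1 was -0.0034, against 0.65 without the covariate, and that of Zmat3 was 0.07. In that fit 1 of the 10 genes, Eda2r, had an adjusted p under 0.05, as did 5 genes in all. The marker mean did not overlap between 0 and 3 weeks, so this fit cannot tell microglial content from weeks of diet. The part of microglial content was not otherwise tested. Pmaip1 had its highest value of the 3-week group, 4.55, in the array with the most microglial signal. So did Eda2r (5.72), Ccng1 (8.74), Aen (6.28) and Bbc3 (6.37), whereas Cdkn1a, Phlda3, Mdm2, Plk2 and Zmat3 had theirs in another array.

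The members did not follow one another equally over the 12 arrays. Pearson's r with Eda2r, given as a description since the arrays fall into 4 groups that they share, was 0.94 for Ccng1, 0.92 for Phlda3, 0.86 for Mdm2, 0.77 for Cdkn1a and 0.72 for Aen, and 0.54 or lower for the other 4. Spearman's rho was 0.94, 0.94, 0.82, 0.90 and 0.79 for the same 5 genes. With Cdkn1a the highest r was that of Ccng1 at 0.84 (rho 0.92) and the lowest that of Bbc3 at 0.20 (rho 0.20). Among 1519 genes with an SD of at least 0.5 over the 12 arrays, those most like Cdkn1a by Pearson's r were Cd44, a hyaluronan receptor gene (0.844), the glutamate receptor gene Grik3 (0.837), the protease inhibitor gene Serpina3n (0.835), the amino acid transporter gene Slc7a1 (0.835) and Gadd45b (0.835). Those most like Eda2r were the microtubule protein gene Eml1 (0.935), the imprinted gene Peg10 (0.921), the GABA receptor subunit gene Gabrb2 (0.916), the growth factor gene Btc (0.915) and Arap2 (0.912). Their Spearman's rho lay between 0.637, for Gabrb2, and 0.881, for Grik3.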

How the data were processed

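Total RNA of 12 preparations was labelled and measured on Affymetrix arrays. The authors made the log2 values with RMA in Affymetrix Expression Console 1.4, per the submitters' processing notes, and RMA compresses dim transcripts. The labels name a pair of RNA kits without a kit per sample, so kit and group cannot be told apart. No genome build is named for the array. Of 22206 clusters, 19572 had 1 symbol, all matched by Entrez identifier to RefSeq (GRCm38.p6), none had several, and 2634 are unnamed here. The brightest cluster was taken for 55 genes with several, which left 19505 genes and no filter on dim genes. No 2 columns were identical.

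The test was limma 3.58.1 under R 4.3.3 (two-sided, moderated, 1 mean per group, all 12 arrays, 8 residual degrees of freedom), with Benjamini-Hochberg adjustment over all genes at 0.05. The number of arrays limits the precision. The script was tested on simulated data. Members and lists were chosen with earlier results of these data known, and the settings of the promoter search after seeing its matches. The text names all members, list genes past the threshold (up to 5 by p for a list and comparison), the checks Mgat5b and Slc1a3, Mdm4, and the 5 genes most like Cdkn1a and Eda2r. Trp53inp1, Trp53i13, Sesn1, Eda and Edar were named after their values were seen. Slc1a3, the bead antigen, averaged 7.27 ± 0.31 in GnT-IX-deficient arrays at 12 weeks, and 8.35 ± 0.44, 7.00 ± 0.51 and 7.30 ± 0.28 in wild-type arrays at 0, 3 and 12 weeks (SD, n = 3 each). Same-numbered replicates correlated in their deviations from the group means by -0.279 to 0.216, so the numbers were not taken to pair arrays. Figures were drawn with matplotlib 3.10.9.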

Additional observations from a re-analysis of the deposited data

How the results depend on the processing

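The alternatives were median centring, quantile normalization, no dimmest 30% of genes, the mean of all clusters, array weights, a robust variance with trend, the 6 arrays of a comparison alone, the replicate number as a block, a microglial or choroid plexus marker mean as a covariate, and leaving out each array. Between genotypes none of the 10 genes and none of the 34 further targets passed under any of them, and between 12 and 3 weeks none of the 34 did. At 3 weeks the count of the 34, in either direction, was 4 with array weights (Sesn1 lower, Btg2, Gadd45a and Rps27l higher), 0 with the microglial covariate, and 0 to 3 when 1 array was left out (the 3 were Sesn1, lower, and Gadd45a and Rps27l, higher). At 12 weeks against 0 it was 1 with median centring, 1 with the choroid plexus covariate and 0 with the microglial covariate, and 0 to 2 when 1 array was left out. With the replicate number as a block these counts were 0, 2, 2 and 0 for the genotypes, 3 weeks, 12 weeks against 0 and 12 against 3, as without it. The cause of these moves was not tested. The microglial marker mean was 5.05 to 5.61 at 0 weeks, 6.49 to 8.83 at 3 weeks and 7.84 to 8.96 at 12 weeks in wild-type arrays. As a covariate it therefore cannot be told apart from 0 against 3 or 12 weeks of diet.

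Small genotype differences changed sign without passing the test. With the choroid plexus covariate these were Cdkn1a (0.0083), Eda2r (0.35), Ccng1 (0.074), Aen (0.024) and Zmat3 (0.29), and with the microglial covariate Zmat3 (0.027). When 1 array was left out, Eda2r reached from -0.21 to 0.19, Aen from -0.31 to 0.067 and Zmat3 from -0.15 to 0.035. Of the 6 genes with an adjusted p under 0.05 at 3 weeks, 4 (Cdkn1a, Eda2r, Phlda3 and Ccng1) had one under each alternative except the microglial covariate, where Eda2r did. As the genes were picked on this contrast, this is a description and nothing is read from it. Pmaip1 had no value without the dimmest genes. Without detection calls, the dim genes Eda2r and Pmaip1 have no lower bound of signal. Calls over all genes were 5 between genotypes and 1 to 49 under the alternatives, 49 without replicate 3 of the GnT-IX-deficient group. At 3 weeks there were 632, 192 to 385 when any 1 array other than replicate 2 of the 3-week group was left out, and 5 with the microglial covariate. At 12 weeks against 0 there were 514, 77 without replicate 2 of the 12-week group, 919 with array weights and 0 with the microglial covariate. At 12 weeks against 3 there were 16, and 0 to 146 under the alternatives.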
